A study of Mus musculus with 12 samples.

Results

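The set described here consists of the stretches of the mouse genome where the histone mark H3K4me3 was called in small-intestinal epithelium of embryos at E14.5 (embryonic day, counted from conception), in adult intestinal stem cells and in adult enterocytes, but not at E12.5. Peaks of 8 libraries were merged into 1 region wherever they overlapped or touched. Members were chosen by the presence of called peaks, with no limit set on their length or rank. A call rests on the caller's q value, which also sets the ranks below. Neither ranks nor lengths can therefore be taken as independent of the rule. A region on 1 of the 19 autosomes was a member if it held a peak in all 6 libraries of the later sources and in neither E12.5 library. The rule gave 610 members among 23602 autosomal regions, out of 24352 regions in all. A further 14 regions on chromosomes X and Y met the same presence rule and were left out with the other sex-chromosome regions.

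All cells came from mice of a mixed C57BL/6 CD1 background. The sources were epithelium of embryos at E12.5 and at E14.5, Lgr5-EGFP-high intestinal stem cells (ISC) of adults and enterocytes of adults, with 2 libraries each. The adults were males of postnatal day 60 that carried the Lgr5EGFP-Cre-ERT allele, in which the stem cell gene Lgr5 drives a fluorescent reporter, and which both the ISC and the enterocytes therefore shared. The labels give neither sex nor transgene for the embryos. Cells were sorted as EpCAM-positive and negative for CD31, CD45 and DAPI, markers of endothelium, leukocytes and dead cells, and ISC were further sorted for EGFP. The enterocyte sort named no marker that sets enterocytes apart from other epithelial cells. Libraries of a source are described in the design text as biological duplicates. The p-values below rest on the spread between such duplicates, pooled over the sources of a fit and drawn towards that of all regions tested. In a sorted population, a mark carried by fewer cells and a weaker mark in every cell cannot be told apart.

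H3K4me3 is trimethylation of lysine 4 on histone H3, written by methyltransferases of the SET1 and MLL families. It marks the start sites of genes that are transcribed or held ready for transcription, and the stretch it covers tends to be long at genes that are central to the identity of a cell. Lgr5-expressing stem cells at the base of the crypts renew the intestinal epithelium throughout adult life, and enterocytes are their absorptive daughters on the villi. Around the embryonic ages sampled here the gut tube is still lined by an epithelium that proliferates throughout, and villi begin to form towards the later of these ages.

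Regions are named by their position on the genome build mm9, on which the peak lists were made. The reference gene and promoter tables used here are on GRCm38, and positions were not converted between builds, so no gene was assigned to a region and no promoter sequence is shown. Neat1, a long noncoding RNA that scaffolds nuclear paraspeckles, is the gene linked with this set. It lies on chromosome 19 in the RefSeq gene table, where 23 members lie, but it was not placed among them. For the same reason, the cell type of the sorted populations was not checked against marker genes.

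The values that chose the members are given as a description only. In E12.5 replicate 1 and replicate 2 every member had 0 bp under a peak. The nearest regions on the other side of the rule were 594 that had a peak in all 6 later libraries and in exactly 1 E12.5 library. Of these, 563 owed it to E12.5 replicate 2, where they were covered over 159 to 1722 bp (median 402 bp) with a −log10 q of 1.04 to 15.9 (median 2.92). The remaining 31 owed it to E12.5 replicate 1, with 190 to 1229 bp (median 254 bp) and a −log10 q of 1.09 to 3.68 (median 2.13). Just inside the rule, the weakest of a member's 6 peak values had a −log10 q between 1.12 and 15.2, with a median of 3.05. A further 455 regions had no E12.5 peak and lacked a peak in only 1 of the 6 later libraries, and in 278 of these that library was enterocyte replicate 1.

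Absence from a list means that the authors' caller reported no peak at that depth, not that the mark was lacking. ISC replicate 1 had 13355462 tags and enterocyte replicate 1 had 12821255, against 15053166 and 22696869 tags in the E12.5 libraries. Both were shallower than either E12.5 library, and that both held a peak in every member was required by the rule. The part of depth in the absence at E12.5 was not tested. The other later libraries had between 22137910 and 43259380 tags. The later lists held 11650 to 17658 peaks, against 11111 and 13693 at E12.5. Without E12.5 replicate 2 the rule gave 1173 regions. When every list was reduced to its 11111 best peaks by −log10 q, 199 regions met the rule, of which 86 overlapped a member.

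The members had their shortest median length at E14.5 and their longest in enterocytes, whereas regions called in all 8 libraries were longest at E14.5. The median over members of the mean length of a source was 763.5 bp at E14.5, 792 bp in ISC and 1012 bp in enterocytes. For the 8651 autosomal regions called in all 8 libraries the same medians were 1069 bp (E12.5), 1739 bp (E14.5), 1414.5 bp (ISC) and 1379 bp (enterocytes). The 594 regions with a single E12.5 peak had medians of 965.5 bp (E14.5) and 844 bp (ISC), between both sets, and 931.5 bp in enterocytes, below both.

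By library, the median member covered 730.5 and 805 bp at E14.5, 656.5 and 934.5 bp in the ISC libraries, and 830.5 and 1187.5 bp in enterocytes, replicate 1 first. The ISC and E14.5 libraries overlapped in these medians, and so did the enterocyte and ISC libraries. Replicate 2 was the longer of the pair in 407 members for E14.5, 528 for ISC and 513 for enterocytes. The median SD of a member between replicates (n = 2) was 88.4 bp at E14.5, 185 bp in ISC and 212 bp in enterocytes. In ISC and enterocytes replicate 1 was also the shallower library, and at E14.5 it was the deeper one; the part of depth in these lengths was not tested.

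**Figure D1:**
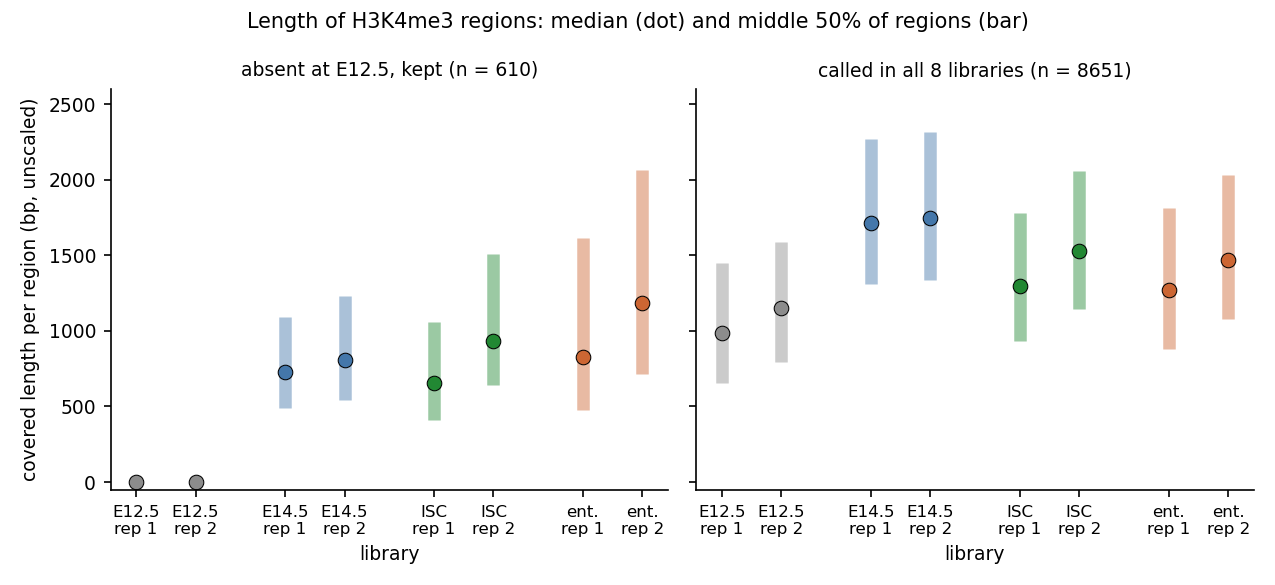
Covered length per region in bp (vertical axis, unscaled) in each of the 8 libraries, for the 610 members (left) and the 8651 regions called in all 8 libraries (right); dots are medians and bars the middle 50% of regions. The members sit at 0 bp in E12.5 by the rule, and their upper quartile reaches 2062.5 bp in enterocyte replicate 2, against 1095 and 1230.75 bp at E14.5.

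Long members were rare at E14.5. Covered length reached 2000 bp in both libraries in 33 members for E14.5 (5.41%), 42 for ISC (6.89%) and 104 for enterocytes (17%). For the regions with a peak in every library these shares were 32.3%, 16.4% and 17.6% in the same order. A length of 4000 bp in both libraries was reached by 0 members in the E14.5 pair, 1 in ISC and 18 in enterocytes (2.95%), beside 2.8%, 1.13% and 1.65% of the regions called in all 8 libraries. At 2000 bp the enterocyte share of long members thus stood close to that of regions called in every library.

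In ISC against E14.5, more members were longer than shorter. Lengths were scaled by library to equal medians over the regions called in all 8, and limma was run on log2(covered bp + 200) over the 17679 regions called in at least 2 libraries; all 610 members were among them. In ISC, 73 members (12%) were longer and 3 (0.492%) were shorter at a Benjamini-Hochberg adjusted p under 0.05. Over all regions tested 2.87% were longer and 11.9% shorter, and over the 9855 autosomal regions that, like the members, had a peak in all 6 later libraries, 1.84% were longer and 0.923% shorter. The fitted change had a median of 0.22 (log2) over members, 0.01 over those 9855 regions and −0.07 over all regions tested, and it was above 0 in 434 of 610 members. By the rule, members had 0 bp in both E12.5 libraries, so that pair added no spread to their variance in either length comparison. Most of the 9855 regions had E12.5 peaks, and there it did add spread. In the fit without E12.5, 76 members were longer and 2 shorter in ISC, beside 255 longer of the 9855 regions. More of the 9855 were then called in both directions than with E12.5. Without scaling, E14.5 regions were longer in general. The median change of the 9855 regions was then −0.25 and that of the members −0.01. The split was 41 longer and 7 shorter members, beside 79 longer and 611 shorter of the 9855 regions. With 1 library left out, a source keeps a single library, so median changes are given in place of counts. Those of the members were 0.18 and 0.24 without E14.5 replicate 1 and 2, and 0.33 and 0.16 without ISC replicate 1 and 2. Those of the 9855 regions were 0.01 to 0.02. Without either E14.5 library all calls among the 9855 regions were lost, those of the members included.

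The largest lengthening in ISC was on chromosome 2 from 14095183 to 14099785. It covered 2329 and 2822 bp in ISC, against 192 and 306 bp at E14.5, and the groups did not overlap. The log2 change was 2.78 ± 0.29 (SE, limma adjusted p = 0.0014), and in enterocytes it covered 4603 and 2954 bp. A chromosome 14 region from 78303236 to 78305851 had 1936 and 2601 bp in ISC, against 221 and 252 bp at E14.5, a change of 2.63 ± 0.28 (limma adjusted p = 0.0018). It had 1688 and 1085 bp in enterocytes, between its E14.5 and ISC lengths. Both calls were lost when either E14.5 library was left out, as were all calls among the 9855 regions. Without E14.5 replicate 1 and 2 the changes were 2.60 and 2.91 on chromosome 2, and 2.57 and 2.65 on chromosome 14.

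A region on chromosome 15 from 80019520 to 80024975 lengthened at both steps. It covered 241 and 472 bp at E14.5, 1581 and 2275 bp in the ISC libraries, and 5279 and 5399 bp in enterocytes. The log2 change was 2.12 ± 0.22 in ISC against E14.5 (limma adjusted p = 0.0014) and 1.44 ± 0.22 in enterocytes against ISC (limma adjusted p = 0.016). The chromosome 6 region from 134363925 to 134365954 had 1806 and 1998 bp in ISC, against 575 and 185 bp at E14.5 (2.11 ± 0.32, limma adjusted p = 0.0084). Its enterocyte lengths of 1806 and 1850 bp were close to those in ISC, with a change of −0.01 ± 0.32. The chromosome 7 region from 150292650 to 150295993 was long in ISC only among the later sources, with 2751 and 3154 bp, against 447 and 757 bp at E14.5. It covered 353 and 1612 bp in enterocytes, where the replicates were far apart. Its change of 2.21 ± 0.52 in ISC against E14.5 had a limma adjusted p of 0.044 and lost the call in 12 of the alternative settings.

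The 3 members shorter in ISC were all long at E14.5. The chromosome 16 region from 32485337 to 32487843 had 233 and 314 bp in ISC, against 1973 and 2253 bp at E14.5 (−2.01 ± 0.16, limma adjusted p = 0.00054). It had 2340 and 2492 bp in enterocytes, which did not overlap ISC (2.50 ± 0.16, limma adjusted p = 0.00073). A chromosome 5 region from 138358748 to 138362918 had the same shape, with 2269 and 2659 bp at E14.5, 851 and 520 bp in the ISC libraries, and 4107 and 2928 bp in enterocytes. Its changes were −1.32 ± 0.32 in ISC against E14.5 (limma adjusted p = 0.048) and 2.11 ± 0.32 in enterocytes against ISC (limma adjusted p = 0.016). The chromosome 11 region from 59927296 to 59929362 had 826 and 889 bp in ISC, against 2002 and 2058 bp at E14.5 (−0.80 ± 0.16, limma adjusted p = 0.024), and 856 and 913 bp in enterocytes. With lists of equal number the sign of the ISC change turned in the chromosome 5 and chromosome 11 regions, to 1.23 and 1.16, neither of them called. In the chromosome 16 region the ISC change was 0 in that setting. Its peaks were weak, with a −log10 q of 2.14 and 2.55 at E14.5, and 2.84 and 4.24 in ISC.

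In enterocytes against ISC, members were again called longer more often than shorter. The ISC libraries stand on the lower side of this comparison and on the upper side of the previous one, so the counts of the 2 comparisons are not independent. Limma called 60 members (9.84%) longer and 6 (0.984%) shorter in enterocytes at an adjusted p under 0.05. Over all regions tested 4.35% were longer and 3.17% shorter, and over the 9855 regions called in the 6 later libraries 3.09% were longer and 1.46% shorter. The median change was 0.23 over members and 0.01 over those 9855 regions, and 421 of 610 members were above 0. In the fit without E12.5, 53 members were longer and 6 shorter, beside 321 and 154 of the 9855 regions. With E12.5, 305 and 144 of the 9855 were. For fits with 1 library left out, only median changes are given, since a source then keeps a single library. Those of the members were 0.37 and 0.12 without enterocyte replicate 1 and 2, and 0.13 and 0.36 without ISC replicate 1 and 2. They were 0.23 without either E14.5 or either E12.5 library. Those of the 9855 regions were 0.01 to 0.03.

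**Figure D2:**
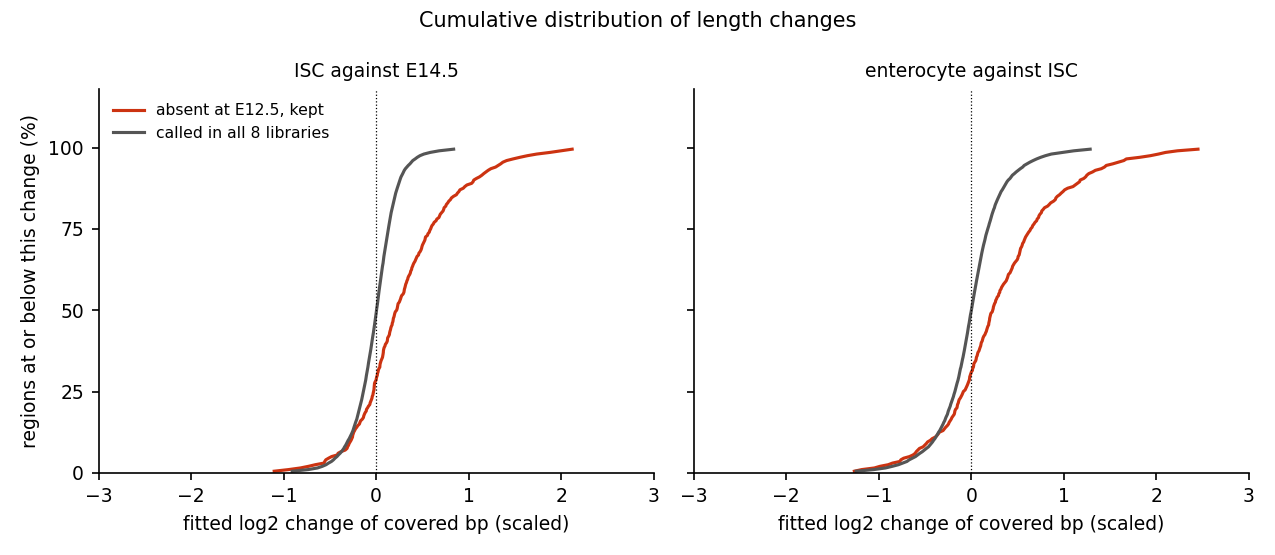
Share of regions (vertical axis, %) at or below a given fitted log2 change of scaled covered bp (horizontal axis), for ISC against E14.5 (left) and enterocytes against ISC (right); red is the 610 members and grey the 8651 regions called in all 8 libraries. The curve of the members lies to the right of 0 at its middle, at 0.22 and 0.23.

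The region with the largest lengthening in enterocytes lay on chromosome 15 from 75692243 to 75697159. It covered 2948 and 4798 bp in enterocytes, against 355 and 629 bp in ISC, after 954 and 1000 bp at E14.5. The change of 2.58 ± 0.24 against ISC had a limma adjusted p of 0.0027. Also on chromosome 15, the region from 76022840 to 76031002 had 4265 and 8163 bp in enterocytes, against 597 and 1375 bp in ISC (2.49 ± 0.36, limma adjusted p = 0.015). At E14.5, with 1092 and 1637 bp, it consisted of 3 separate peaks in each library, and in enterocyte replicate 2 a single peak spanned them all.

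The chromosome 7 region from 86981089 to 86988405 had 6067 and 7317 bp in enterocytes, against 551 and 2026 bp in ISC (2.45 ± 0.42, limma adjusted p = 0.027). Its E14.5 lengths of 1394 and 1205 bp lay inside the ISC range, and the call was lost in 8 of the alternative settings. The chromosome 13 region from 74258490 to 74265293 covered 378 and 475 bp at E14.5, 1253 and 872 bp in the ISC libraries, and 5741 and 6755 bp in enterocytes. It lengthened in ISC against E14.5 (1.196 ± 0.233, limma adjusted p = 0.022) and in enterocytes against ISC (2.40 ± 0.23, limma adjusted p = 0.0033). No library of 1 source overlapped those of another.

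Of the 6 members shorter in enterocytes, several were longest in ISC. The chromosome 17 region from 14416275 to 14419692 covered 891 and 1459 bp in enterocytes, against 2727 and 3418 bp in ISC (−1.24 ± 0.20, limma adjusted p = 0.023). It had 2108 and 1580 bp at E14.5, so that ISC were also longer than E14.5 (0.95 ± 0.20, limma adjusted p = 0.031). The chromosome 11 region from 82803051 to 82805575 had 739 and 1018 bp in enterocytes, against 2090 and 2525 bp in ISC (−1.19 ± 0.19, limma adjusted p = 0.019), and 902 and 1240 bp at E14.5. The chromosome 6 region from 147995374 to 147997457 had 574 and 688 bp in enterocytes, against 1850 and 1673 bp in ISC (−1.21 ± 0.25, limma adjusted p = 0.047), and 370 and 582 bp at E14.5. The chromosome 14 region from 62304894 to 62306162 had 245 and 479 bp in enterocytes, against 1049 and 1269 bp in ISC (−1.27 ± 0.25, limma adjusted p = 0.041), and 413 and 403 bp at E14.5. The calls of the chromosome 6 and chromosome 14 regions were lost in 14 and 13 alternative settings. The chromosome 19 region from 41066261 to 41068841 had 827 and 1122 bp in enterocytes, against 1857 and 2537 bp in ISC (−0.99 ± 0.14, limma adjusted p = 0.014). It covered 1963 and 2025 bp at E14.5.

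**Figure D3:**
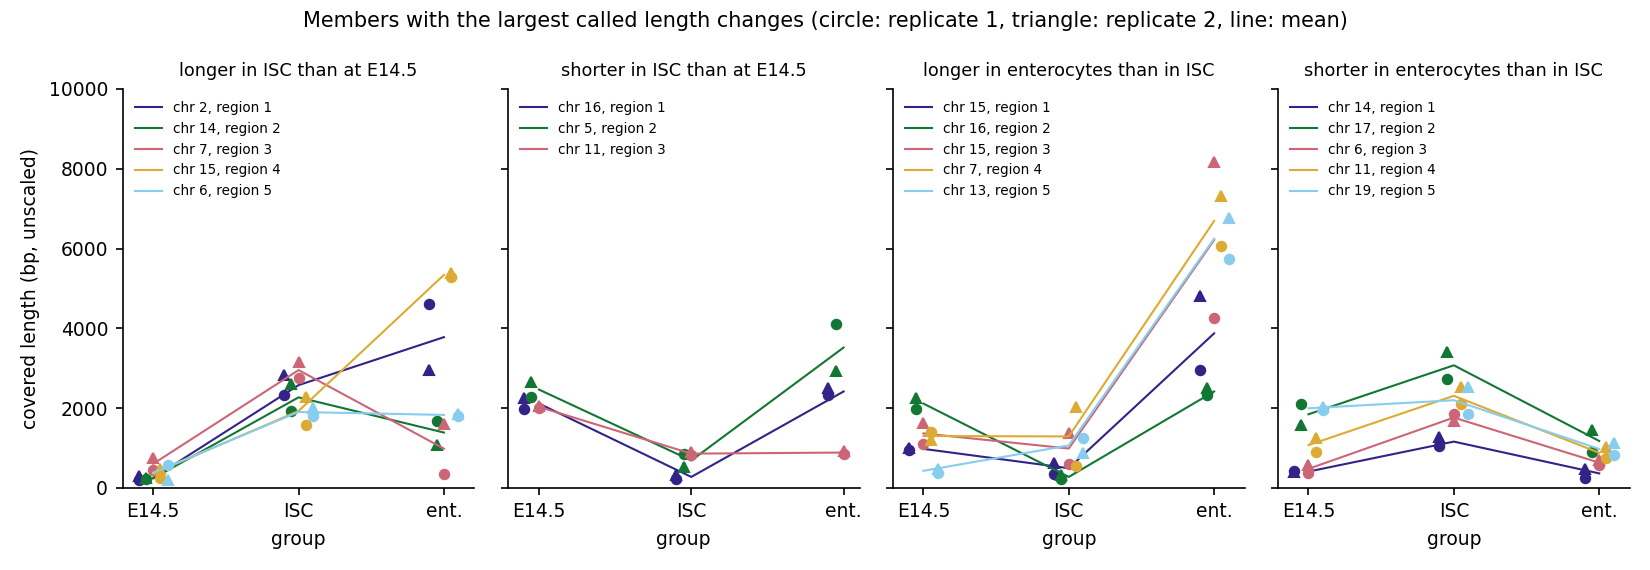
Covered length in bp (vertical axis, unscaled) in E14.5, ISC and enterocytes for the members with the largest called changes in each comparison and direction; circles are replicate 1, triangles replicate 2 and lines join the means. The regions longer in enterocytes reach up to 8163 bp, and those shorter in enterocytes have their highest mean in ISC.

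Seen over the whole sequence from E14.5 through ISC to enterocytes, the unscaled lengths of 62 members (10.16%) increased at each step without overlap between sources, beside 1.51% of the 9855 regions called in the 6 later libraries. With scaled lengths the count was 139 members (22.8%), beside 8.41%. On the scaled lengths, both enterocyte libraries were longer than both E14.5 libraries in 387 members (63.4%), beside 35.9%, and shorter than both in 55 (9.02%), beside 28.5%. Unscaled, these counts were 283 (46.4%, beside 12.49%) and 103 (16.9%, beside 63.0%). Unscaled for ISC against E14.5, 165 members were longer without overlap (27.0%, beside 5.03%) and 127 shorter (20.8%, beside 65.1%). Unscaled for enterocytes against ISC, 218 were longer (35.7%, beside 20.3%) and 73 shorter (12%, beside 23.3%). Of the 594 regions with a single E12.5 peak, 30.3% were longer and 10.4% shorter by this last measure. With scaled lengths, 52.5% of the 594 were longer and 12.6% shorter in enterocytes than at E14.5, and 14.3% increased at each step.

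The edges of the called span were compared over all 610 members. Relative to E14.5, both edges of the called span lay further out in both enterocyte libraries in 108 members (17.7%), and 1 edge did in 260 (42.6%). The side was even, with the left edge in 131 and the right edge in 129 members. In 60 of the 260 the other edge had moved inward. Of the 9855 regions called in the 6 later libraries, 2.88% had both edges and 19.3% had 1 edge further out. In ISC against E14.5, 54 members (8.85%, beside 1.24%) had both edges further out and 211 (34.6%, beside 9.44%) had 1. In enterocytes against ISC these counts were 90 (14.8%, beside 5.31%) and 220 (36.1%, beside 29.2%). Of the 594 regions with a single E12.5 peak, 6.57% had both edges and 33.8% had 1 edge further out in enterocytes than at E14.5. These shares were 3.2% and 18.7% in ISC against E14.5, and 8.59% and 36.7% in enterocytes against ISC.

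The later peaks lay over the earlier ones. Of the E14.5 span of a member, a median of 89.6% fell inside the ISC span and 95.1% inside the enterocyte span. At least 90% was inside in 302 members (49.5%) for ISC and in 358 (58.7%) for enterocytes. For the regions called in all 8 libraries, the medians were 81.3% in ISC and 78.2% in enterocytes, and the shares with at least 90% inside were 21.8% and 23.8%. No member had an E14.5 span that missed the later one. Of the regions called in all 8 libraries, 0 did for ISC and 1 for enterocytes. As regions were built from peaks that overlapped or touched, such overlap is largely set by the merging.

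**Figure D4:**
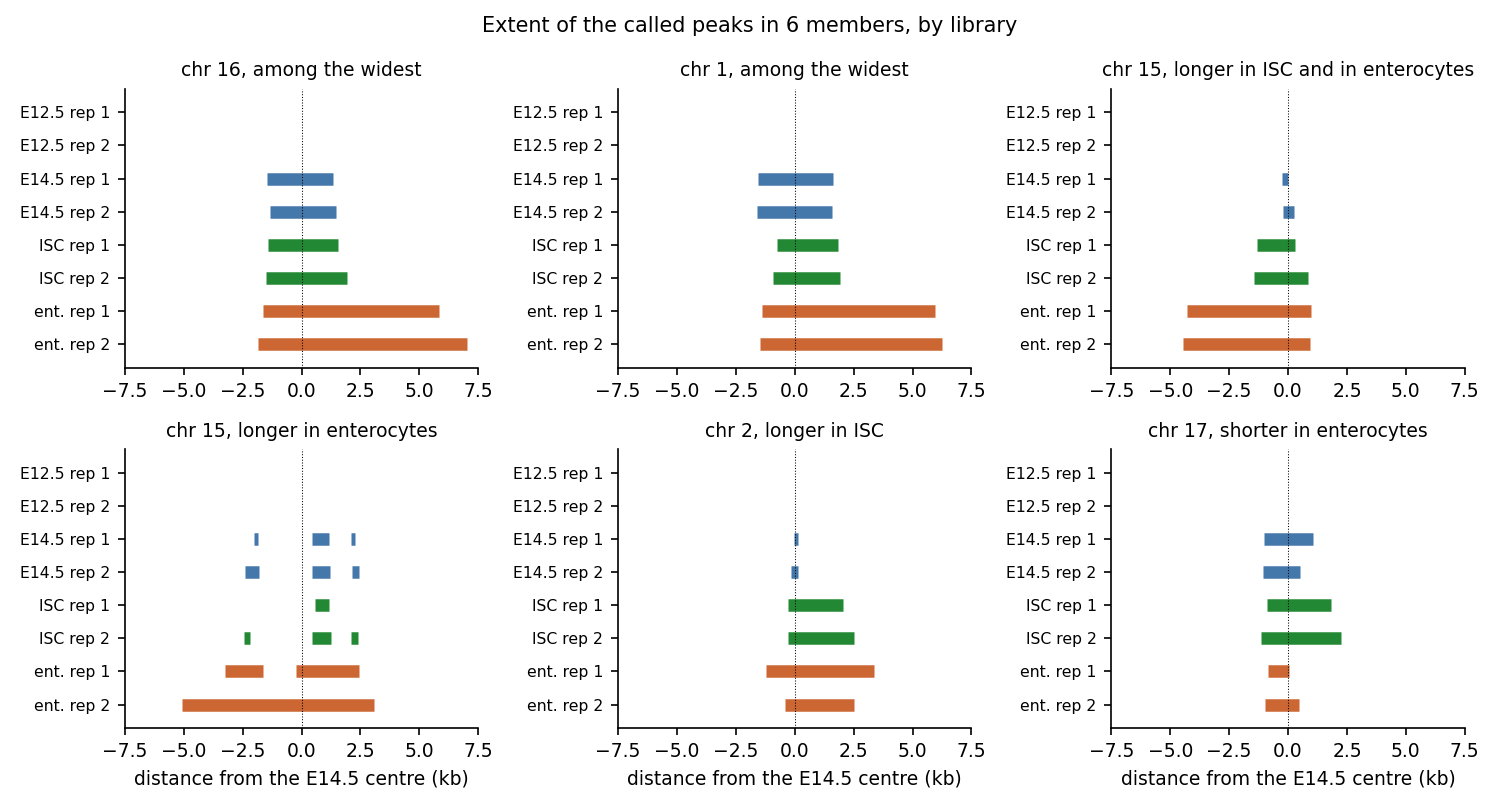
Extent of the called peaks in 6 members by library, as distance in kb from the centre of the E14.5 span; bars are peaks and empty rows are libraries with none. In the chromosome 16 and chromosome 1 regions among the widest, most of the added enterocyte length lies on the right, reaching 5.85 to 7.00 kb and 5.93 to 6.26 kb from the centre.

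Several of the widest members were longest in enterocytes. The chromosome 16 region from 33793988 to 33802839 covered 2774 and 2788 bp at E14.5, 2972 and 3460 bp in the ISC libraries, and 7490 and 8852 bp in enterocytes. Its changes were 0.47 ± 0.06 in ISC against E14.5 (limma adjusted p = 0.0035) and 1.33 ± 0.06 in enterocytes against ISC (limma adjusted p = 0.00039). The chromosome 1 region from 74454848 to 74462725 had 7346 and 7719 bp in enterocytes, against 2599 and 2861 bp in ISC (1.44 ± 0.08, limma adjusted p = 0.00041), and 3166 and 3176 bp at E14.5. The fitted change in ISC against E14.5 was 0.08 ± 0.08 (limma adjusted p = 0.66).

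The chromosome 10 region from 79283334 to 79290726 had the largest mean length over the 6 libraries, 4817.5 bp. It covered 6295 and 7390 bp in enterocytes, against 3478 and 4328 bp in ISC (0.82 ± 0.07, limma adjusted p = 0.0024), and 3490 and 3924 bp at E14.5. The chromosome 13 region from 99459661 to 99465810 differed in that ISC replicate 2 was its longest library. It covered 2947 and 3543 bp at E14.5, 3549 and 5921 bp in the ISC libraries, and 2243 and 3157 bp in enterocytes, and neither change passed (limma adjusted p = 0.054 and 0.11).

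On chromosome 19, the widest of the 23 members spanned 5841400 to 5847498. It covered 3831 and 4250 bp at E14.5, 2302 and 4458 bp in the ISC libraries, and 3433 and 6099 bp in enterocytes, and no pair of consecutive sources was free of overlap. The log2 changes were −0.02 ± 0.28 in ISC against E14.5 and 0.53 ± 0.28 in enterocytes against ISC (limma adjusted p = 1.0 and 0.41). At E14.5 it was the longest of all 610 members in replicate 1 and in replicate 2, at 3831 and 4250 bp.

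The strength of the mark was followed by rank. Each region was ranked in each library by the highest −log10 q of its peaks, a value the authors' caller assigned, and the rank was expressed as a percentile among the 9855 regions called in all 6 later libraries. The members began near the bottom and remained below the middle. Calls and ranks both rest on the q value, so this low start cannot be taken as independent of the rule. A start near the bottom also leaves room mainly for a rise. Their median percentile was 3.78 and 3.68 at E14.5, 7.10 and 6.15 in the ISC libraries, and 20.8 and 10.3 in enterocytes. The regions called in all 8 libraries had group medians of 56.5 (E14.5), 56.0 (ISC) and 55.0 (enterocytes). The 594 regions with a single E12.5 peak had 9.89, 13.3 and 23.0. Within the full list of each library, the median member stood at percentiles 22.1 and 27.6 at E14.5, 21.9 and 33.7 in the ISC libraries, and 28.7 and 45 in enterocytes.

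The enterocyte replicates gave different rank distributions. The middle 50% of members spanned percentiles 7.67 to 47.4 in enterocyte replicate 1 and 3.81 to 23.5 in replicate 2. Replicate 1 placed 147 members above the 50th percentile and replicate 2 placed 56 there, 46 of them (7.54%) in both. At E14.5 0 members, and in ISC 3, were above the 50th percentile in both libraries. The median SD of a member between replicates was 0.703 points for E14.5, 2.34 for ISC and 6.18 for enterocytes. Enterocyte replicate 1 was the shallowest library with the shorter list of its pair; whether its depth had a part in these ranks was not tested.

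**Figure D5:**
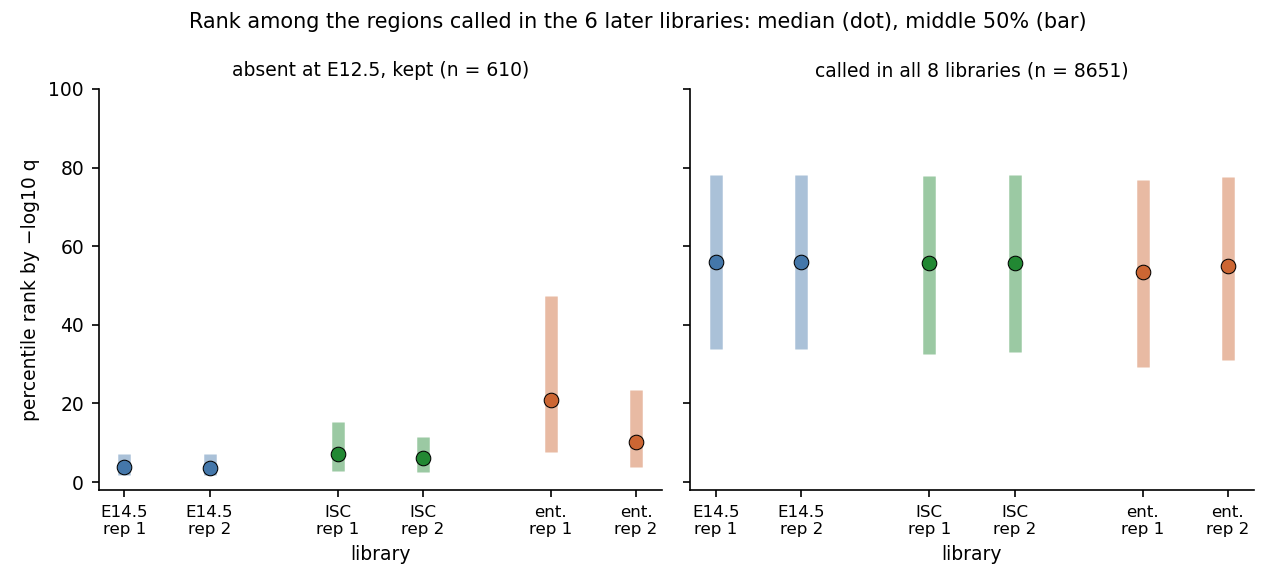
Percentile rank by −log10 q among the 9855 regions called in the 6 later libraries (vertical axis), by library, for the 610 members (left) and the 8651 regions called in all 8 libraries (right); dots are medians and bars the middle 50% of regions. The median of the members lies below 4 in both E14.5 libraries and at 20.8 and 10.3 in the enterocyte libraries.

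In enterocytes against ISC, limma on the percentile ranks called 60 members higher (9.84%) and 4 lower (0.656%), beside 1.88% and 0.873% of the 9855 regions. The median change was 7.77 points over members and −0.238 over all those regions, and 477 of 610 members were above 0. Without any 1 of the E14.5 and ISC libraries all calls among the 9855 regions were lost, those of the members included. The median change of members was then 7.77 points without either E14.5 library, and 8.58 and 7.40 without ISC replicate 1 and 2. It was 2.99 and 11.8 points without enterocyte replicate 1 and 2. Over the 9855 regions the median change in these fits was −0.238 to −0.005. Without reference to the fit, both enterocyte ranks were above both ISC ranks in 313 members (51.3%), beside 25%, and below both in 54 (8.85%), beside 25%. Both enterocyte ranks were above both E14.5 ranks in 397 members (65.1%, beside 31.2%) and below both in 47 (7.7%, beside 31%). The 594 regions with a single E12.5 peak also rose more often than they fell. By this measure 42.8% of them ranked higher and 14.48% lower in enterocytes than in ISC. Against E14.5 these shares were 56.6% and 13.3%.

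In ISC against E14.5, limma called 1 member higher in rank and 0 lower, beside 0.071% and 0.325% of the 9855 regions. An unadjusted p under 0.05, in either direction, was reached by 67 members (10.98%), beside 15.6% of the 9855 regions. The single call was lost without either E14.5 or either ISC library, as were the higher calls of all other regions. With 1 library left out, the median change of members was 1.82 to 2.81 points. The median change was 2.53 points over members, and 440 of 610 were above 0. Both ISC ranks were above both E14.5 ranks in 301 members (49.3%), beside 28.1%, and below both in 98 (16.1%), beside 29.4%. Ranks ordered without overlap from E14.5 through ISC to enterocytes were found in 147 members (24.1%), beside 6.1%. Of the 594 regions with a single E12.5 peak, 39.6% ranked higher and 22.6% lower in both ISC libraries than in both E14.5 libraries, and 15.0% were so ordered.

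The member called higher in ISC was the chromosome 17 region from 14416275 to 14419692, whose length was greatest in ISC. Its percentile was 10.4 and 10.1 at E14.5, 64.9 and 51.8 in the ISC libraries, and 0.599 and 1.92 in enterocytes. The changes were 48.1 ± 6.5 points in ISC against E14.5 (limma adjusted p = 0.046) and −57.1 ± 6.5 points in enterocytes against ISC (limma adjusted p = 0.012). The other 3 members called lower in enterocytes also ranked higher in both ISC libraries than in both E14.5 libraries. The chromosome 7 region from 150292650 to 150295993 had percentiles 5.68 and 8.26 in enterocytes, against 39.6 and 33.6 in ISC (−29.6 ± 5.2, limma adjusted p = 0.034), and 2.84 and 12.1 at E14.5. A chromosome 11 region from 58192306 to 58196491 had 3.07 and 1.35 in enterocytes, against 23.9 and 31.5 in ISC (−25.5 ± 4.3, limma adjusted p = 0.030), and 11.9 and 11.6 at E14.5. It was also the sixth member called shorter in enterocytes, with 1241 and 1705 bp, against 2450 and 3391 bp in ISC (−0.86 ± 0.18, limma adjusted p = 0.048), and 2766 and 3871 bp at E14.5. A chromosome 13 region from 99357021 to 99359590 had 0.183 and 2.90 in enterocytes, against 26.6 and 19.7 in ISC (−21.6 ± 4.0, limma adjusted p = 0.038), and 7.63 and 11.6 at E14.5.

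The largest increases in rank took members from the bottom of the order to near its top. The chromosome 5 region from 31246069 to 31247971 had percentiles 92.7 and 78.7 in enterocytes, against 3.82 and 5.42 in ISC, and 4.35 and 4.71 at E14.5. The change of 81.0 ± 8.3 points had a limma adjusted p of 0.010, and the length was also greater, at 1612 and 1806 bp in enterocytes, against 607 and 531 bp in ISC. The chromosome 15 region from 75722657 to 75725074 had percentiles 87.6 and 92.9 in enterocytes, against 15.8 and 13.8 in ISC (75.4 ± 9.0, limma adjusted p = 0.012). Its length had changed earlier, with 1475 and 1486 bp in ISC, against 579 and 627 bp at E14.5 (1.28 ± 0.16, limma adjusted p = 0.0033). It covered 1885 and 2418 bp in enterocytes.

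The remaining named increases had lower ranks in enterocyte replicate 2 than in replicate 1. The chromosome 13 region from 54802516 to 54805785 had percentiles 96.5 and 69.3 in enterocytes, against 5.99 and 9.62 in ISC (75.1 ± 10.3, limma adjusted p = 0.018), and covered 2980 and 3270 bp in enterocytes. The chromosome 7 region from 106384812 to 106387231 had 88.5 and 63.4 in enterocytes, against 3.47 and 2.43 in ISC (73.0 ± 10.0, limma adjusted p = 0.018), and 14.8 and 20.6 at E14.5. The chromosome 7 region from 148459217 to 148463237 had 96.3 and 59.3 in enterocytes, against 7.17 and 7.46 in ISC (70.5 ± 11.5, limma adjusted p = 0.027). All of these named rank calls were lost when any 1 of the E14.5 and ISC libraries was left out. So were the calls of all other regions in enterocytes against ISC.

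The members with the highest mean rank over the 6 libraries reached it at different sources. The chromosome 8 region from 112484213 to 112486179 had percentiles 22.5 and 14.51 at E14.5, 81.6 and 87.0 in the ISC libraries, and 81.1 and 78.9 in enterocytes. Its ISC change of 65.8 ± 10.6 points fell just short of the threshold (limma adjusted p = 0.055), although the libraries did not overlap. The chromosome 8 region from 74223842 to 74226294 had 9.96 and 15.5 at E14.5, 53.6 and 50.5 in the ISC libraries, and 99.8 and 99.0 in enterocytes. Its steps of 39.3 ± 10.7 and 47.4 ± 10.7 points had limma adjusted p-values of 0.17 and 0.059.

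Another chromosome 8 region, from 26209581 to 26214222, had percentiles 15.8 and 12.2 at E14.5, 65.7 and 31.2 in the ISC libraries, and 83.4 and 72.7 in enterocytes. It was also longer in ISC, with 2560 and 4089 bp, against 1383 and 1454 bp at E14.5 (1.35 ± 0.15, limma adjusted p = 0.0020). The chromosome 17 region from 34323258 to 34326505 had percentiles 29.1 and 18.5 at E14.5, 24.0 and 62.3 in the ISC libraries, and 72.5 and 77.8 in enterocytes. Its length increased at both steps, with 1556 and 1627 bp at E14.5, 1870 and 2107 bp in the ISC libraries, and 2725 and 3136 bp in enterocytes (limma adjusted p = 0.011 and 0.023). In the chromosome 7 region from 134156274 to 134158392 the replicates differed widely, with percentiles 17.3 and 16.3 at E14.5, 33.2 and 75.9 in the ISC libraries, and 95.0 and 51.0 in enterocytes.

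Length and rank were related but were not the same order. Across the 610 members, which share their libraries, Spearman's rho between mean length and mean percentile was 0.43 for E14.5, 0.36 for ISC and 0.59 for enterocytes, given as a description. The chromosome 19 region from 5841400 to 5847498, the longest at E14.5, stood at percentiles 9.16 and 5.01 there, 32.0 and 42.5 in the ISC libraries, and 93.9 and 64.3 in enterocytes. Its rank steps of 30.1 ± 12.3 and 41.9 ± 12.3 points did not pass (limma adjusted p = 0.29 and 0.097), although each source lay above the one before it without overlap. The long chromosome 16 region from 33793988 to 33802839 ranked at 83.8 and 12.48 in the enterocyte libraries, which were 7490 and 8852 bp long there. The long chromosome 1 region from 74454848 to 74462725 likewise ranked at 93.0 and 14.8 in enterocytes.

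The members were spread over all autosomes. They made up 6.19% of the 9855 regions called in the 6 later libraries, from 3.03% on chromosome 14 with 10 members to 8.05% on chromosome 17 with 42. Another member lay within 10 kb of 33 members (5.41%) and within 100 kb of 120 (19.7%). There were 4 runs of at least 3 members spaced by no more than 50 kb, of which 2 lay on chromosome 17, from 34272429 to 34336385 and from 36246871 to 36327147.

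The stretch of chromosome 17 between the outer ends of these 2 runs was singled out after its values were seen and is described without a test. It held 17 members, which were 27.0% of the 63 regions there that were called in the 6 later libraries, and 40.5% of the members on that chromosome. Their median length was 726.5 bp at E14.5, 857 bp in ISC and 1382.5 bp in enterocytes. Their median percentile was 2.92 for E14.5, 7.40 for ISC and 42.9 for enterocytes. Of the 17, limma called 6 higher and 0 lower in rank in enterocytes against ISC, and 1 longer and 0 shorter. In ISC against E14.5 it called 2 longer and 0 shorter. Of all 610 members, 9.84% were called higher in rank and 9.84% longer in enterocytes, and 12% longer in ISC. Of the 9855 regions these shares were 1.88%, 3.09% and 1.84%.

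Within the run of 6, from 36246871 to 36327147, ranks were low until enterocytes. The region from 36325646 to 36327147 had percentiles 57.3 and 64.7 in enterocytes, against 9.81 and 13.6 in ISC (49.3 ± 6.2, limma adjusted p = 0.015), and 0.396 and 0.335 at E14.5. The region from 36264533 to 36266500 had 71.5 and 51.5 in enterocytes, against 8.11 and 8.16 in ISC (53.3 ± 7.6, limma adjusted p = 0.019), and 1.35 and 1.00 at E14.5. The region from 36246871 to 36248709 had 35.6 and 36.7 in enterocytes, against 2.24 and 0.802 in ISC (34.6 ± 3.8, limma adjusted p = 0.012). Both enterocyte values exceeded both ISC values in each of these. The exception in length was the region from 36315835 to 36316600, which covered 261 and 589 bp in enterocytes, against 512 and 511 bp in ISC, and 686 and 662 bp at E14.5.

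The run on chromosome 15 from 76022840 to 76073911 began with the long region described above and held 3 members. The region from 76072597 to 76073911 had percentiles 57.6 and 38.7 in enterocytes, against 8.01 and 13.9 in ISC (37.2 ± 7.1, limma adjusted p = 0.040). The run on chromosome 7 from 148450478 to 148465519 held the region of large rank increase from 148459217 to 148463237 and its neighbour from 148464245 to 148465519. That neighbour covered 1053 and 1241 bp in enterocytes, against 212 and 474 bp in ISC (1.39 ± 0.27, limma adjusted p = 0.042), yet its percentiles of 7.35 and 6.02 in enterocytes were not far from 2.34 and 3.82 in ISC.

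Most members lay more than 5 kb from a region called at E12.5, as did most regions of the sets compared. The median distance to such a region was 26.7 kb, and 93 members (15.2%) lay within 5 kb of one. For the regions called in all 8 libraries, the distance to the nearest other region called at E12.5 had a median of 30.2 kb, with 9.51% within 5 kb. For the 1239 regions called at E14.5 only it was 49.7 kb, with 10.17%. For the 594 regions with a single E12.5 peak it was 23.7 kb, with 13.6%. The 93 members near an E12.5 region had median lengths of 750.5 bp at E14.5, 790 bp in ISC and 1001.5 bp in enterocytes, beside 777.5, 793.5 and 1012 bp for the other 517. The share called longer in ISC against E14.5 was 9.68% in the near members and 12.4% in the others, and in enterocytes against ISC it was 9.68% and 9.86%. The difference between near and other members was not tested.

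Regions that appeared at E14.5 and were not kept were shorter there. The median length at E14.5 was 432 bp for the 1239 regions called at E14.5 only. It was 539.5 bp for the 120 regions shared by E14.5 and ISC and absent from E12.5 and enterocytes. The members had 763.5 bp at E14.5, and the 455 regions that missed 1 of the 6 later libraries had 539 bp. Presence in the later libraries separated these sets, so the difference in length is a description.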

How the data were processed

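H3K4me3 peak lists of 8 libraries were used, 1 list per library with replicates not pooled; the 4 input libraries served only as controls when the authors called peaks, 1 input for both libraries of a source. Per the file headers, the authors called broad peaks with MACS 2.0.10.20130712 at a q cutoff of 0.01, an effective genome size of 1870000000 and model folds of 5 to 50. The lists also hold weaker peaks, with a lowest −log10 q of 1.01 to 1.09. The build mm9 and the tools bcl2fastq 1.8.4, Bowtie 1.1.2 and SAMtools 1.2 are named in the submitters' processing notes. Per the file headers, each deposited peak has a length in bp, a pileup signal, a fold enrichment ratio over the input, and its −log10 q-value and −log10 p-value. These are the authors' own values for a peak and served only to rank or filter peaks within a list. Per the labels, chromatin was sheared to fragments of 350 to 700 bp.

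Peaks were merged across lists, and the bp under each library's peaks were counted per region. Covered bp, divided by a factor per library from 0.72 (E12.5 replicate 1) to 1.28 (E14.5 replicate 2), was fitted as log2(covered bp + 200) with limma 3.58.1 in R 4.3.3 over regions called in at least 2 libraries, all 4 groups together, with a trended prior (4 residual degrees of freedom). Ranks were fitted likewise in the 6 later libraries (3 residual degrees of freedom). Tests were two-sided, with Benjamini-Hochberg adjustment over all regions tested. Printed lengths are unscaled; log2 changes are scaled and understate changes of short regions. The limma steps were tested on simulated data. Tables and figures were made with Python 3.11.15, pandas 2.3.3 and matplotlib 3.10.9.

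Named members are, per comparison and direction, the 5 with the largest called length change without overlap and the 5 with the largest called rank change, the 5 widest and the 5 of highest mean rank. Members of runs and of the chromosome 17 stretch were named after their values were seen. The members, lists and tests were chosen with earlier results of these data known. Planned marker gene lists were not used, since genes could not be placed on mm9. Alternatives were other pseudocounts, scalings, filters, peak thresholds, merging gaps and ranking values, a replicate block, and each library left out in turn. Same-numbered replicates of different groups had correlated deviations from their group means of 0.021 to 0.310 for length and 0.060 to 0.255 for rank; with 2 numbers, the numbers were not taken to pair the samples.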

Additional observations from a re-analysis of the deposited data

How the results depend on the processing

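Peak lists hold no reads per region, so lengths and ranks depend on depth and on the caller, and 2 libraries per source limit every test. The 610 members became 199 in lists of equal number, and 617 to 1173 with each library left out, 1173 without E12.5 replicate 2. With peaks of −log10 q of at least 10 the count was again 610, but only 12 of those regions overlapped a member; with at least 500 bp it was 706, of which 274 did, and with a merging gap of 1000 bp 605, of which 604 did. The 73 members longer in ISC against E14.5 became 190 in lists of equal number, 41 without scaling and 116 with quantile normalization (0 to 78 with each library left out). The 3 shorter ones became 7 without scaling, 5 with a pseudocount of 1000 bp, 1 with 50 bp and 1 when regions needed at least 4 libraries (0 to 8). The 60 members longer in enterocytes against ISC became 114 in lists of equal number and 91 with 1000 bp (28 to 55), and the 6 shorter ones 12 with 1000 bp, 3 with 50 bp and 3 with at least 4 libraries (0 to 11). For rank, the 1 higher member in ISC against E14.5 (7) became 6 (22) with normal scores, 15 (316) by fold enrichment and 3 (9) by pileup. In these 3 settings 0 members were lower in limma (28, 358 and 27). The 60 members higher in enterocytes against ISC became 196 by fold enrichment (0 to 326), and the 4 lower ones 10 (0 to 12). Over the 9855 regions, 181 longer in ISC became 362 in lists of equal number, 79 without scaling and 256 with quantile normalization. The 91 shorter became 611 without scaling, 97 with 1000 bp, 81 with 50 bp and 44 with at least 4 libraries. In enterocytes, 305 longer became 396 in lists of equal number and 394 with 1000 bp. The 144 shorter became 154 with 1000 bp, 135 with 50 bp and 101 with at least 4 libraries. In rank by fold enrichment, 185 higher became 1343 and 86 lower 1283. With the replicate number as a block, 65 members (171) were longer and 4 (88) shorter in ISC against E14.5. In enterocytes against ISC, 48 (265) were longer and 4 (117) shorter. In rank, 3 (13) were higher and 0 (40) lower in ISC, and 81 (246) and 4 (139) in enterocytes. As the numbers do not pair the samples, this is only another fit. Over the named regions, 267 of 406 alternative values kept direction and call, 135 kept direction but lost the call, and 2 had a change of 0 and 2 turned in sign, all 4 in lists of equal number in ISC against E14.5. Those at 0 were the chromosome 6 region starting at 134363925 and the chromosome 16 region starting at 32485337. Those that turned were the chromosome 5 region starting at 138358748, with 1.23 (limma adjusted p = 0.75), and the chromosome 11 region starting at 59927296, with 1.16 (0.74). The cause of these shifts was not tested.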
